A study of Mus musculus with 6 samples.

Results

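The genes described here encode 8 enzymes of serine synthesis and one-carbon metabolism, taken as a given list of gene symbols: Phgdh, Psat1, Psph, Shmt1, Shmt2, Mthfd1, Mthfd2 and Mthfd1l. The list was chosen with earlier results of these data known, so its comparisons with all tested genes below are descriptions. All 8 were among the 24346 symbols in the files and among the 9087 genes tested, which had at least 1 FPKM (fragments normalised to transcript length and mapped depth) in at least 3 of the 6 libraries. RNA was sequenced from splenic plasma cells sorted by isotype, with 3 IgG1 libraries and 3 IgM libraries. In both groups the cells derived from congenically marked B1-8 germline B cells, whose knocked-in heavy chain recognises the hapten NP, and they had been transferred into wild-type C57BL/6J hosts immunised with NP-CGG in alum. They were sorted at day 7, so both groups share the knocked-in heavy chain gene, the antigen, the host strain and the time, and were separated by isotype. The groups also differed in plasma cell marker genes, given below. Neither the age and number of the mice nor whether libraries of 1 group stem from different mice is stated in the labels, so the p-values below cover only the spread among these libraries, part of which may be technical. The IgG1 libraries were less alike than the IgM libraries. Over the tested genes, IgG1 library 1 correlated more closely with each IgM library (Pearson r 0.954 to 0.960) than with IgG1 libraries 2 and 3 (0.949 and 0.944), and 243 and 288 tested genes were at 0 in IgG1 libraries 2 and 3, against 74 in IgG1 library 1 and 27 to 60 in the IgM libraries. Results are therefore also given without single libraries.

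Serine is made from the glycolytic intermediate 3-phosphoglycerate: PHGDH oxidises it, PSAT1 transfers an amino group from glutamate to the product, and PSPH removes the phosphate. SHMT2 in mitochondria and SHMT1 in the cytosol then split serine into glycine and a methylene group carried by tetrahydrofolate. In mitochondria MTHFD2 oxidises this carrier and MTHFD1L releases formate, which MTHFD1 in the cytosol loads back onto folate for the synthesis of purines and thymidylate and for methylation. The pathway is known to be induced when lymphocytes are activated and divide, and several of its genes are known targets of the stress-responsive transcription factor ATF4.

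Of the 8 genes, 7 had a higher mean in IgG1 than in IgM plasma cells, and for 6 of them every IgG1 library lay above every IgM library. Across all tested genes 13.7% were placed in that way and 46.3% had a positive fold change. In limma's test across all tested genes Phgdh and Shmt2 passed an adjusted p of 0.05 and 0 of the 8 were lower. In all, 6.02% of tested genes were called, 4.26% higher and 1.76% lower. Fold changes below are log2 differences of FPKM + 1, IgG1 minus IgM, with limma's standard error (SE) and Benjamini-Hochberg adjusted p. The median over the 8 genes was 0.49, against -0.05 over all tested genes. The unadjusted 95% interval of the fold change lay above 0 for 5 of the 8, against 11.9% of all tested genes.

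**Figure D1:**
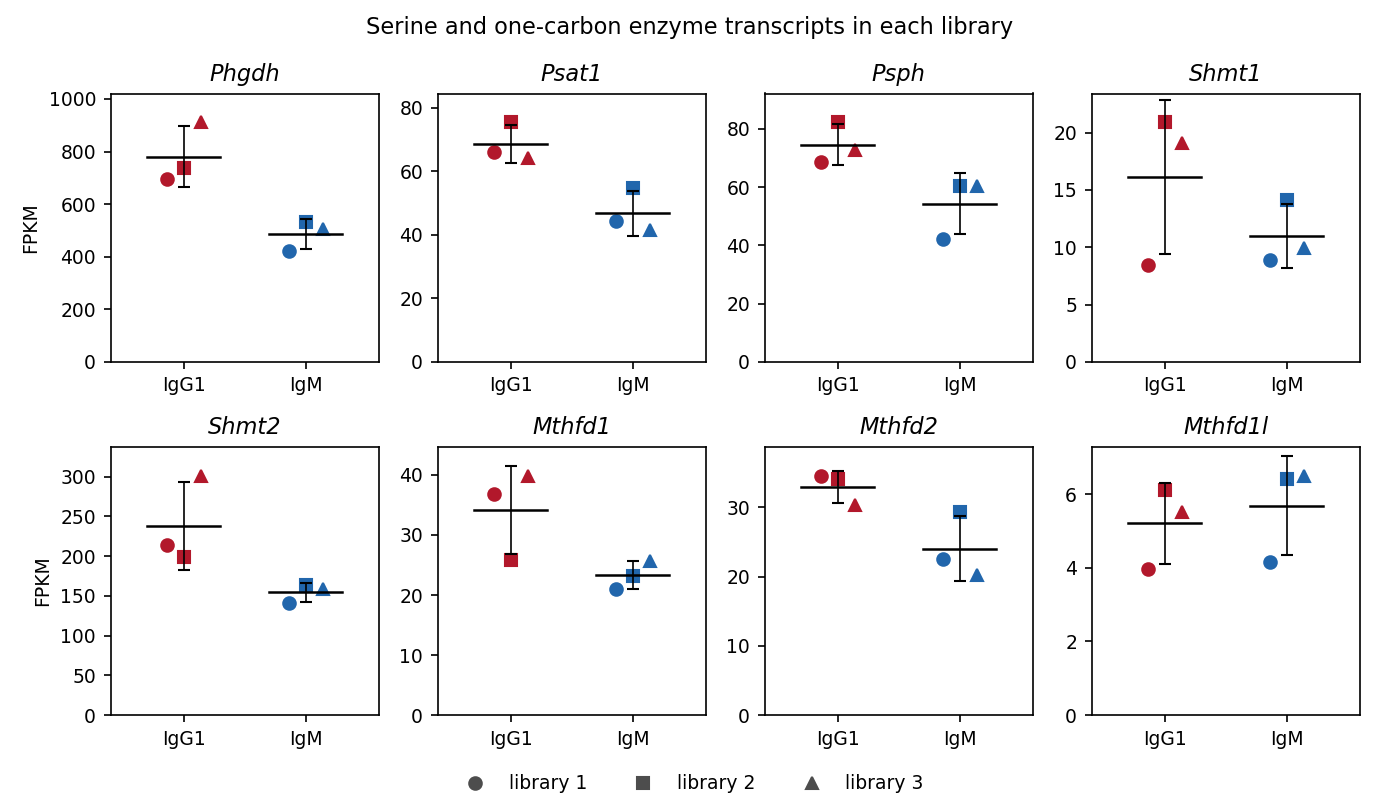
FPKM of each gene (vertical axes, linear from 0) in the 3 IgG1 libraries, left in red, and the 3 IgM libraries, right in blue; symbols give the library number, the horizontal line the mean and the bar the SD. The groups are separate for Phgdh, Psat1, Psph, Shmt2, Mthfd1 and Mthfd2 and overlap for Shmt1 and Mthfd1l.

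For 4 of the genes the region just upstream of a RefSeq start is shown. Phgdh and Shmt2 are the members that passed the test, while Psat1 and Mthfd2 varied most alike across the libraries among the others. Each is the 250 bases before a RefSeq transcript start in GRCm38.p6, read 5′ to 3′ on the strand of the gene, which is the minus strand for all 4. Capitals mark the pentamer CCAAT, or ATTGG where it lies on the other strand, the core of the CCAAT box bound by the factor NF-Y.
Phgdh, chr3:98339970-98340219: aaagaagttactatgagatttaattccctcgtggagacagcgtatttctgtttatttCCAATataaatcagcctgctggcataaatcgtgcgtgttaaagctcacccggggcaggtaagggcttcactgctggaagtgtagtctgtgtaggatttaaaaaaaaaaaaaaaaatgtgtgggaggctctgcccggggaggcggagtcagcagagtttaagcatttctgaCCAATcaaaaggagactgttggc
Psat1, chr19:15925060-15925309: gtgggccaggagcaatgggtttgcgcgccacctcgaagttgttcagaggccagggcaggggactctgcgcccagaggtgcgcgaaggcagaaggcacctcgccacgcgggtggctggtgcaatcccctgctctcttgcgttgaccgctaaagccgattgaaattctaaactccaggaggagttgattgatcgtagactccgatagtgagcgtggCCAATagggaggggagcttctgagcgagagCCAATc
Shmt2, chr10:127522445-127522694: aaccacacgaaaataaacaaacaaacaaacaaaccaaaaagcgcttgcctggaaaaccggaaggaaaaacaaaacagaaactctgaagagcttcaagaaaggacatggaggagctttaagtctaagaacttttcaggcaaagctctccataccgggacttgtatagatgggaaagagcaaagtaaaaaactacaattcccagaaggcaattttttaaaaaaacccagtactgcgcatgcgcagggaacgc
Mthfd2, chr6:83317605-83317854: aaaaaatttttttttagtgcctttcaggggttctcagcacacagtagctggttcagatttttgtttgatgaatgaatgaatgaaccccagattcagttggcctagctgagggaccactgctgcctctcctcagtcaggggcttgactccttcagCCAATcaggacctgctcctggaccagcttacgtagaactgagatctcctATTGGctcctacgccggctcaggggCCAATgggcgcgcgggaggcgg
The Phgdh window held 2 matches, the Psat1 window 2, the Mthfd2 window 3 and the Shmt2 window 0. RefSeq gives Psat1 another start, whose window held 0. Psph had 2 matches, Shmt1 and Mthfd1 had 1 each, and Mthfd1l had 0. Counting a gene if any of its starts had a match on either strand, 6 of 8 members did, as did 41.6% of the 7031 tested genes with a promoter entry. The letters TGATGNAA, the core of the element that ATF4 binds with C/EBP partners, or TTNCATCA on the other strand, were found in 0 of the 8 and in 2.47% of tested genes. The E-box CACGTG, which reads the same on both strands and is bound by MYC and related factors, was found in 0 of the 8 and in 10.4% of tested genes. These are matches of letters in short windows, not measured binding sites. By the GENCODE spans given below, the windows of Psat1, Mthfd2 and Shmt1 lie inside the gene. Sequence upstream of the GENCODE spans of these genes was not scanned.

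Phgdh, the gene of the first enzyme of serine synthesis, was the most abundant of the 8, at 695, 736 and 911 FPKM in IgG1 libraries 1 to 3, against 421, 533 and 504 FPKM in IgM libraries 1 to 3. The lowest IgG1 library was above the highest IgM library. The means were 781 ± 115 FPKM in IgG1 and 486 ± 58.3 FPKM in IgM cells (SD, n = 3 each), a 1.61-fold difference of means. The log2 fold change was 0.68 (SE 0.13, limma adjusted p = 0.0134; 95% interval 0.39 to 0.97). Without IgG1 library 3 it was 0.56 with an adjusted p of 0.0509, and without IgM library 1 it was 0.58 with an adjusted p of 0.0649. In the other 4 fits that left out a library Phgdh passed the threshold. By mean FPKM Phgdh ranked 250 of the 9087 tested genes, within the top 2.75%.

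Psat1, whose enzyme makes phosphoserine with glutamate as amino donor, had 66.1, 75.4 and 64.2 FPKM in the IgG1 libraries, against 44.3, 54.8 and 41.4 FPKM in the IgM libraries. The groups did not overlap. The log2 fold change was 0.55 (SE 0.17, 95% interval 0.17 to 0.92) and the limma adjusted p of 0.0826 missed the threshold. Psph, the phosphatase gene that completes the route, had 68.5, 82.2 and 72.7 FPKM in the IgG1 libraries, against 42.1, 60.3 and 60.2 FPKM in the IgM libraries. These groups did not overlap either, and IgM library 1 was the lowest of the 6. Its log2 fold change was 0.47 (SE 0.18, 95% interval 0.07 to 0.86, limma adjusted p = 0.156).

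Per length, Phgdh transcripts were far more abundant than those of the other 2 serine synthesis genes. The Phgdh level was 10.5, 9.76 and 14.2 times that of Psat1 in the IgG1 libraries, against 9.51, 9.74 and 12.2 times in the IgM libraries. On the log2 scale the ratio averaged 3.50 ± 0.29 in IgG1 and 3.38 ± 0.20 in IgM cells (SD, n = 3 each), and the groups overlapped. The log2 ratio of Psph to Phgdh averaged -3.38 ± 0.25 in IgG1 and -3.18 ± 0.13 in IgM cells, again with overlap. Psat1 and Psph had mean levels close to each other, and ranked 1797 and 1664 among the tested genes.

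Shmt2, the mitochondrial serine hydroxymethyltransferase gene, had 215, 199 and 301 FPKM in the IgG1 libraries, against 141, 164 and 159 FPKM in the IgM libraries. The groups did not overlap, and IgG1 library 3 was well above the rest. The means were 238 ± 55.3 FPKM in IgG1 and 154.5 ± 12.2 FPKM in IgM cells (SD, n = 3 each). The log2 fold change was 0.60 (SE 0.16, 95% interval 0.25 to 0.95) and the limma adjusted p was 0.0480, just inside the threshold. Each of the 6 fits that left out 1 library put it outside, with adjusted p between 0.0566 and 0.196 and log2 fold changes between 0.42, without IgG1 library 3, and 0.72, without IgG1 library 2. Shmt2 ranked 657 of the tested genes by mean FPKM, next after Phgdh among the 8.

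Shmt1, the cytosolic counterpart, had 8.43, 20.9 and 19.1 FPKM in the IgG1 libraries, against 8.88, 14.1 and 9.92 FPKM in the IgM libraries. IgG1 library 1 was the lowest of all 6, so the groups overlapped, while IgG1 libraries 2 and 3 were the highest. The log2 fold change was 0.45 (SE 0.36, limma adjusted p = 0.518), and its 95% interval of -0.34 to 1.24 holds both no difference and one larger than that of Shmt2. The mitochondrial gene was the more abundant in every library, with Shmt2 at 25.4, 9.50 and 15.8 times the Shmt1 level in the IgG1 libraries, against 15.8, 11.6 and 16.0 times in the IgM libraries. The IgG1 libraries held both the highest and the lowest of these ratios.

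Mthfd2, the mitochondrial methylenetetrahydrofolate dehydrogenase gene, had 34.6, 34.1 and 30.3 FPKM in the IgG1 libraries, against 22.6, 29.3 and 20.2 FPKM in the IgM libraries. The groups were separate by a narrow margin, between IgG1 library 3 and IgM library 2. The log2 fold change was 0.46 (SE 0.21, 95% interval -0.01 to 0.92, limma adjusted p = 0.236). Mthfd1, the cytosolic enzyme gene that takes up formate, had 36.8, 25.8 and 39.9 FPKM in the IgG1 libraries, against 21.1, 23.2 and 25.6 FPKM in the IgM libraries. IgG1 library 2 was barely above IgM library 3, and the other two IgG1 libraries were well above. Its log2 fold change was 0.51 (SE 0.22, 95% interval 0.02 to 1.00, limma adjusted p = 0.206).

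Mthfd1l, the mitochondrial formate-releasing enzyme gene, was the least abundant of the 8 and the only one of them with a lower mean in IgG1 cells. It had 3.98, 6.11 and 5.53 FPKM in the IgG1 libraries, against 4.15, 6.42 and 6.51 FPKM in the IgM libraries. The groups overlapped, and the log2 fold change was -0.10 (SE 0.37, 95% interval -0.91 to 0.71, limma adjusted p = 0.901). Its sign turned positive under quantile normalization, with the length and GC trend removed, and without IgG1 library 1. Together, Mthfd2 and Mthfd1l had 1.05, 1.55 and 0.90 times the level of Mthfd1 in the IgG1 libraries, against 1.27, 1.54 and 1.04 times in the IgM libraries, with overlap between the groups.

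**Figure D2:**
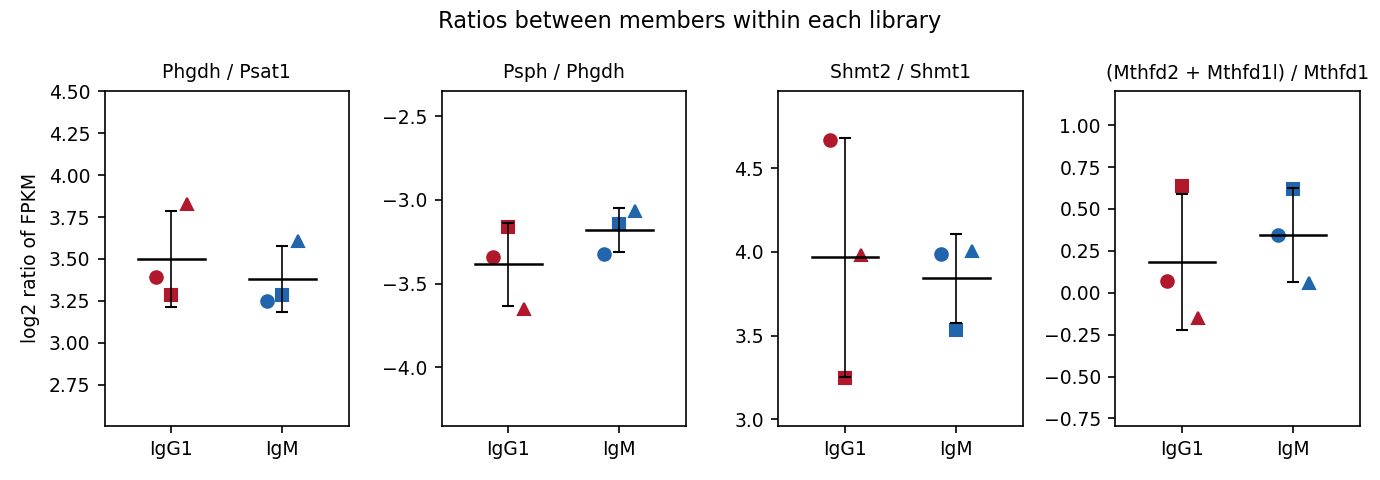
Log2 ratios of FPKM between members within each library (vertical axes, each spanning the same 2 log2 units), IgG1 left in red and IgM right in blue, with the mean and SD. Symbols are circles, squares and triangles for libraries 1, 2 and 3; all 4 ratios overlap between the groups, and Shmt2 to Shmt1 is the most scattered, from 3.25 to 4.67 among the IgG1 libraries.

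By mean level the 8 genes ordered as Phgdh, Shmt2, Psph, Psat1, Mthfd1, Mthfd2, Shmt1 and Mthfd1l. Psph and Psat1 were neighbours whose ranges overlapped within both groups, as were Mthfd1 and Mthfd2, while Phgdh and Shmt2 stood clear of each other and of the rest in every library. The sum over the 8 was 1128, 1180 and 1445 FPKM in the IgG1 libraries, against 705, 885 and 827 FPKM in the IgM libraries. Phgdh made up 61.6% to 63.1% of that sum in the IgG1 libraries and 59.7% to 61.0% in the IgM libraries. As a share of all FPKM in a library the sum was 0.132%, 0.134% and 0.158% in the IgG1 libraries, against 0.0964%, 0.110% and 0.109% in the IgM libraries. The groups were thus also separate when each library was set against its own total, which was itself higher in the IgG1 libraries (855100 to 914000) than in the IgM libraries (730700 to 806600).

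These values moved with the scale between libraries and with a joint correction for transcript length and GC content, whose parts were not separated. Across genes, the deviation from a gene's mean correlated negatively with transcript length in the IgG1 libraries (Spearman rho -0.15 to -0.24) and positively in the IgM libraries (0.15 to 0.30). The medians over annotated transcripts ran from 1259 nt for Psph to 3669 nt for Mthfd1l. With each library's trend on length and GC content removed, the log2 fold change was 0.48 for Phgdh (SE 0.09, limma adjusted p = 0.0236), 0.45 for Shmt2 (adjusted p = 0.0890) and 0.28 for Psph (adjusted p = 0.448). Psat1, Mthfd1 and Mthfd2 were at 0.62, 0.57 and 0.46 after this correction (adjusted p = 0.0768, 0.199 and 0.278), and Shmt1 was at 0.55. The median of the 8 was then 0.47. When all libraries were brought to an equal FPKM sum with Jchain set aside, the median of all tested genes was -0.25 in place of -0.05. Phgdh was then at 0.45 (limma adjusted p = 0.0282) and Shmt2 at 0.37 (adjusted p = 0.129), which is 0.70 and 0.62 above that median, against 0.73 and 0.65 on the deposited scale. Under quantile normalization, where the median of all tested genes is 0, Phgdh was at 0.37 (adjusted p = 0.0479) and Shmt2 at 0.43 (adjusted p = 0.113).

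**Figure D3:**
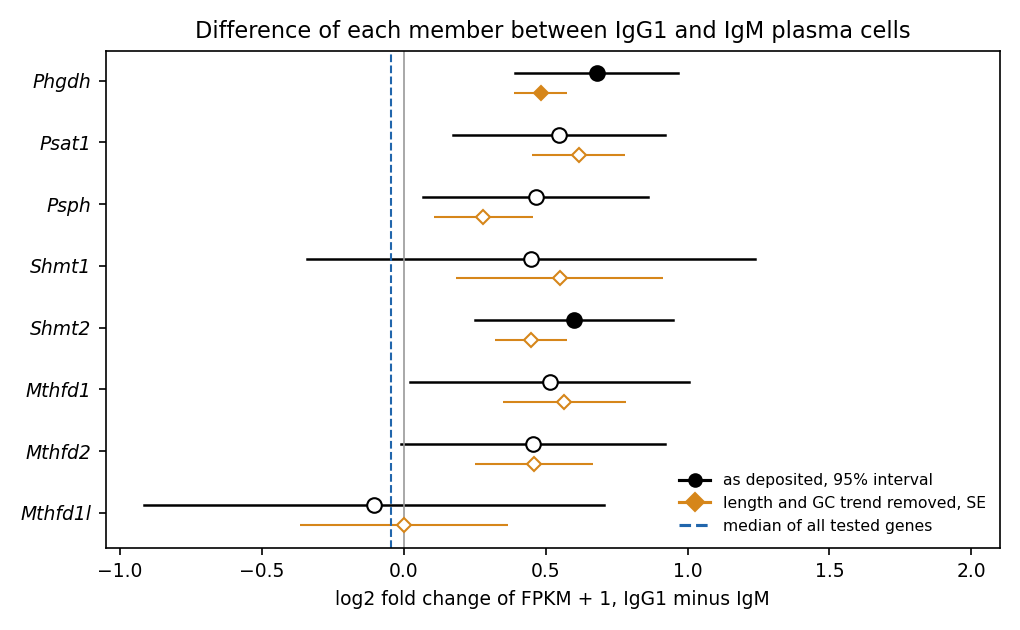
Log2 fold change of FPKM + 1 (horizontal axis, IgG1 minus IgM) for each gene, as deposited with its 95% interval (black circles) and with the length and GC trend removed with its SE (orange diamonds); filled symbols have an adjusted p under 0.05 and the dashed line is the median of all tested genes. Phgdh is filled in both, Shmt2 (0.60 and 0.45) only as deposited, and Mthfd1l lies near 0.

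The annotation of the genes bears on how far their reads can be told apart. In GENCODE vM21 (GRCm38, the assembly mm10 names) all 8 are protein-coding. Phgdh lies on chromosome 3 from 98313170 to 98339990, Psat1 on chromosome 19 from 15904678 to 15947337, Psph on chromosome 5 from 129765558 to 129787449, Shmt1 on chromosome 11 from 60788104 to 60811718 and Shmt2 on chromosome 10 from 127517123 to 127522444. Mthfd1 lies on chromosome 12 from 76255298 to 76319803, Mthfd2 on chromosome 6 from 83305691 to 83325908 and Mthfd1l on chromosome 10 from 3973118 to 4167081. Exons of 4 of them overlap exons of a gene on the opposite strand, and whether counting used strand is not stated in the labels. Reads over these overlaps may therefore have counted for either gene. The partner of Shmt2, Ndufa4l2, had at most 0.0883 FPKM in the IgG1 and 0.659 FPKM in the IgM libraries. The partner of Shmt1, Smcr8, had at most 1.92 FPKM in the IgG1 and 2.88 FPKM in the IgM libraries. Cct6a, which meets Psph through a non-coding transcript, had 86.3 to 144 FPKM in the IgG1 libraries, against 149 to 161 FPKM in the IgM libraries, the opposite direction to Psph. Mthfd1 meets an antisense non-coding gene, and Phgdh has an annotated pseudogene copy, both not analysed here.

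Across the 6 libraries, the genes whose levels followed each other most closely were Phgdh and Shmt2 (Pearson r 0.96 of log2(FPKM + 1)) and Psat1 and Mthfd2 (0.96), followed by Shmt2 and Mthfd1 (0.92). Mthfd1l was nearest to Shmt1 (0.59) among the 8, and reached 0.40 with Psph. These are descriptions over 6 libraries that share the difference between the groups, depth and length trend. Among 6216 tested genes with a mean of at least 5 FPKM, the nearest to Phgdh were the ribosomal protein gene Rps10 (0.9958) and the MHC class I gene H2-Q7 (0.9955). The nearest to Shmt2 were Tmem9 (0.997) and the tubulin gene Tubb5 (0.992), to Psat1 Rbbp4 and the histone gene H3f3a (both 0.991), and to Psph Supt4a and Ppp1r18 (both 0.987). The nearest to Mthfd2 were Bud31 (0.9998) and Gtf3a (0.992), to Mthfd1 Eif2b5 (0.994) and Pagr1a (0.992), to Shmt1 Zfp672 (0.993) and Tmem176a (0.992), and to Mthfd1l Psme3 (0.973) and Rxrb (0.957). An r above 0.95 was reached by 261 genes with Phgdh, 22 with Shmt1, 18 with Mthfd1 and 4 with Mthfd1l.

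On either side of the serine branch, 4 of the 8 glycolytic genes around 3-phosphoglycerate were higher in IgG1 cells and 0 lower. Over all tested genes 4.26% were higher and 1.76% lower. The median log2 fold change of these 8 genes was 0.44. Gapdh, the dehydrogenase that opens lower glycolysis, had 1400, 1730 and 2030 FPKM in the IgG1 libraries, against 906, 1240 and 1030 FPKM in the IgM libraries (0.70, SE 0.15, limma adjusted p = 0.0204). The enolase gene Eno1 (0.67, adjusted p = 0.0218), the triose isomerase gene Tpi1 (0.65, adjusted p = 0.0116) and the pyruvate kinase gene Pkm (0.58, adjusted p = 0.0244) were the others. With the length and GC trend removed Eno1 (0.53) and Pkm (0.43) kept an adjusted p under 0.05, while Gapdh (0.44, adjusted p = 0.0605) and Tpi1 (0.41, adjusted p = 0.0683) did not. When 1 library was left out, Tpi1 passed in all 6 fits (largest adjusted p 0.0466). The other 3 missed the threshold without IgG1 library 2 or 3 or IgM library 1 or 3, where the largest adjusted p was 0.108 for Pkm, 0.0975 for Eno1 and 0.0895 for Gapdh.

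Of 14 tested genes of serine and glycine transport and use, 0 were higher and 1 lower, against 4.26% and 1.76% of all tested genes. The median of the 14 was -0.17. The lower one was Slc38a2, a transporter of small neutral amino acids that include serine and glutamine, with 31.2, 19.7 and 12.2 FPKM in the IgG1 libraries, against 40.0, 50.3 and 43.4 FPKM in the IgM libraries (-1.14, SE 0.29, limma adjusted p = 0.0424). The groups did not overlap, and with the length and GC trend removed it was at -0.82 (adjusted p = 0.143). It passed the threshold without IgG1 library 1 and missed it without any other of the 6 libraries, with an adjusted p of up to 0.134. Sfxn1, the mitochondrial serine carrier gene, had 66.2, 62.6 and 64.7 FPKM in the IgG1 libraries, against 65.4, 55.3 and 66.8 FPKM in the IgM libraries (0.05, SE 0.15, adjusted p = 0.888), with overlapping groups.

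Where 6.02% of all tested genes passed the threshold, 0 of the 10 other folate genes tested did, with a median of -0.10. The highest of these were Tyms, thymidylate synthase, with 43.2, 43.9 and 38.8 FPKM in the IgG1 libraries, against 31.2, 30.5 and 27.0 FPKM in the IgM libraries (0.49, limma adjusted p = 0.136), and Mthfs (0.40, adjusted p = 0.385). The mitochondrial relative of Mthfd2, Mthfd2l, was at no more than 0.0598 FPKM in the IgG1 and 0.468 FPKM in the IgM libraries, and was not tested. In the glycine cleavage system Gldc and Amt were listed at 0 in all 6 libraries. Of its 2 tested genes 0 passed: Dld, which other dehydrogenase complexes share, was at -0.56 (adjusted p = 0.123) and Gcsh at 0.52 (adjusted p = 0.423). Of 9 tested genes of the methionine cycle and transsulfuration 0 passed (median -0.12), and the most abundant were Mat2b (-0.12) and the S-adenosylmethionine synthetase gene Mat2a (-0.02). For lists as short as these, 0 is near the share of all tested genes.

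Among the routes that use one-carbon units, 0 of 13 de novo purine synthesis genes passed the threshold, against 6.02% of all tested genes. The median of de novo purine synthesis was -0.08, and 0 is near that share in a list this short. Its most abundant genes were Impdh1, an IMP dehydrogenase gene, at -0.08 (limma adjusted p = 0.796), and Paics at 0.41 (adjusted p = 0.191). Of 10 tested genes of thymidylate and deoxynucleotide supply 1 was higher and 0 lower, against 4.26% and 1.76% of all tested genes. All 10 fold changes were positive, against 46.3% of all tested genes, and the median of the 10 was 0.39. This list shares Tyms with the folate list. The gene past the threshold was Dctpp1, a pyrophosphatase that removes dCTP and its analogues, with 238, 266 and 303 FPKM in the IgG1 libraries, against 105, 141 and 147 FPKM in the IgM libraries (1.04, SE 0.15, limma adjusted p = 0.00475). With the length and GC trend removed it was at 0.56 (adjusted p = 0.0400), and it passed in all 6 fits without 1 library (largest adjusted p 0.0300).

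ATF4 and its targets outside the 8 genes had 0 of 23 tested members past the threshold, against 6.02% of all tested genes. Their median was 0.03. For 7 of the 23 every IgG1 library lay above every IgM library, and for 0 below. Over all tested genes 13.7% lay above in this way and 13.5% below. The most abundant of the 23 were Nars, asparaginyl-tRNA synthetase (-0.18, limma adjusted p = 0.510), and Slc3a2, the heavy chain of several amino acid transporters (-0.41, adjusted p = 0.153). Atf4 itself had 104, 102 and 75.3 FPKM in the IgG1 libraries, against 114, 113 and 84.7 FPKM in the IgM libraries (-0.14, adjusted p = 0.694). The asparagine synthetase gene Asns had 40.6, 40.0 and 55.5 FPKM in the IgG1 libraries, against 43.7, 43.8 and 42.8 FPKM in the IgM libraries (0.04, SE 0.19, adjusted p = 0.915). Both overlapped between the groups. Whether Phgdh differed more than these genes was not tested.

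**Figure D4:**
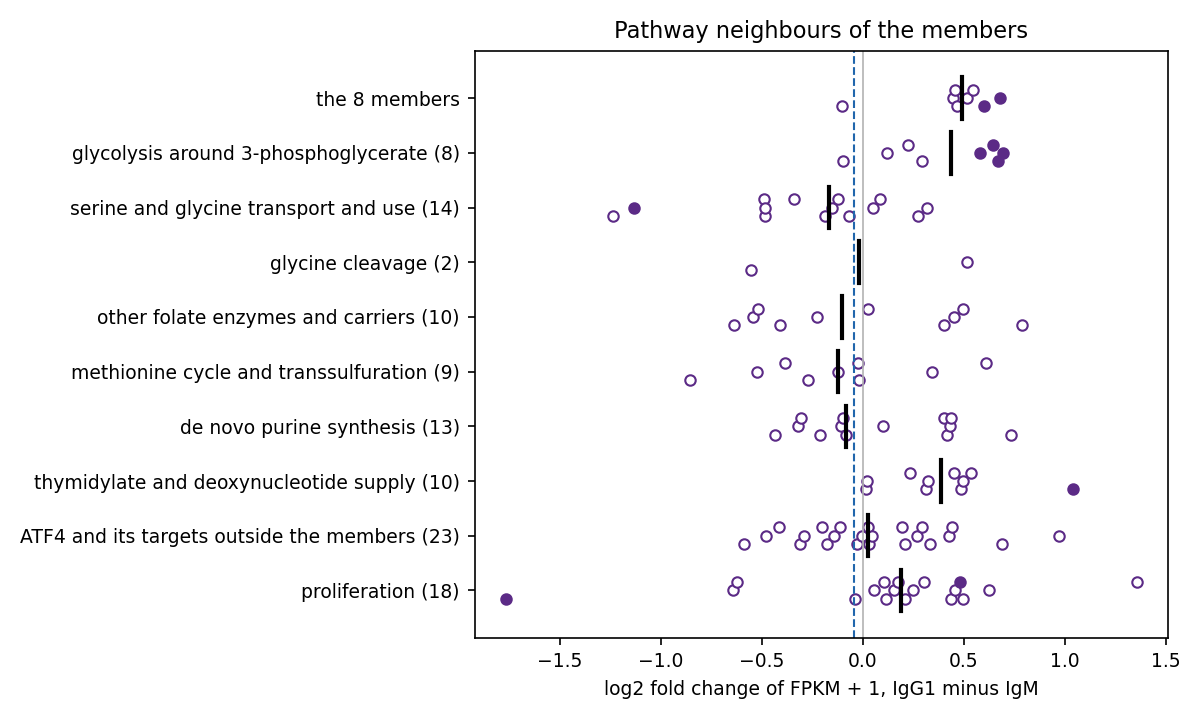
Log2 fold change of FPKM + 1 (horizontal axis, IgG1 minus IgM) of each tested gene in the 8 members and in the lists around them, with the number tested in brackets; filled points have an adjusted p under 0.05, black bars are list medians and the dashed line is the median of all tested genes. The medians of the members (0.49), the glycolytic list (0.44) and the thymidylate list (0.39) lie right of it, and those of serine transport and use (-0.17) and the methionine cycle (-0.12) left.

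Division-linked genes were measured beside the members because the pathway varies with growth. Of 18 tested, 1 was higher and 1 lower, against 4.26% and 1.76% of all tested genes. The median of the 18 was 0.19. Pcna, the replication clamp, had 211, 265 and 261 FPKM in the IgG1 libraries, against 183, 169 and 173 FPKM in the IgM libraries (0.48, limma adjusted p = 0.0480). Mki67 had 18.2, 8.05 and 5.98 FPKM in the IgG1 libraries, against 40.3, 27.0 and 40.3 FPKM in the IgM libraries (-1.77, adjusted p = 0.0155), so this marker of dividing cells had the opposite direction to Pcna. Pcna passed without IgG1 library 1 and missed the threshold without any other library (adjusted p up to 0.149). Mki67 missed it without IgG1 library 2 or 3 or IgM library 1 or 3 (adjusted p up to 0.0869). With the length and GC trend removed Mki67 kept the call (-1.38, adjusted p = 0.0431) and Pcna did not (0.49, adjusted p = 0.0637). The part of cell division in the differences of the 8 genes was not tested.

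The plasma cell markers Jchain (14200 to 17000 FPKM in IgG1 and 24800 to 28600 FPKM in IgM libraries), Xbp1 (6430 to 6860 in IgG1 and 5350 to 6020 in IgM) and Sdc1 (478 to 614 in IgG1 and 444 to 551 in IgM) were abundant in every library. As a list 6 of 9 plasma cell markers were called lower in IgG1 cells and 0 higher, against 1.76% and 4.26% of all tested genes. The largest difference was that of Tnfrsf17, the gene of the survival receptor BCMA, with 67.4, 81.2 and 97.0 FPKM in the IgG1 libraries, against 568, 713 and 587 FPKM in the IgM libraries (-2.92). With the length and GC trend removed Jchain, Tnfrsf17 and Slamf7 kept the call, while Prdm1 (adjusted p = 0.0686), Irf4 (adjusted p = 0.102) and Cd28 (adjusted p = 0.168) lost it. The 8 T cell markers summed to 1.13 to 7.29 FPKM in the IgG1 and 2.73 to 4.73 FPKM in the IgM libraries, the 5 NK markers to 0.961 to 9.18 in IgG1 and 1.10 to 3.45 in IgM, and the 6 erythroid markers to 2.31 to 2.98 in IgG1 and 0.778 to 3.56 in IgM. B cell markers summed to 112 to 148 FPKM in the IgG1 and 155 to 177 FPKM in the IgM libraries, with Pax5 at 0 in all 6, and 0 of 6 tested were called. The 7 myeloid markers summed to 34.5 to 45.7 FPKM in the IgG1 and 64.2 to 69.2 FPKM in the IgM libraries, with S100a8 and S100a9 at 0, and 0 of 3 tested were called. Most of this sum was Cd68, for which every IgG1 library lay below every IgM library and which was lower in IgG1 cells with the length and GC trend removed (-0.84, limma adjusted p = 0.0288). The part of the B cell and myeloid markers in the results was not tested, and in bulk RNA fewer cells of a type and less RNA per cell cannot be told apart. The symbols analysed here held 0 immunoglobulin chains, so the isotype could not be checked in the data and rests on the labels.

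Phgdh kept an adjusted p under 0.05 in 11 of 13 other processing settings and Shmt2 in 6 of 13, apart from those that left out a library. The 2 settings that ended the call of Phgdh also ended that of Shmt2: with no filter on low values the adjusted p was 0.118 for Phgdh and 0.198 for Shmt2, and without limma's intensity trend it was 0.179 and 0.225, at the same fold changes. The other 6 genes passed in none of these 13. The lowest adjusted p they reached was 0.0559, for Psat1.

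**Figure D5:**
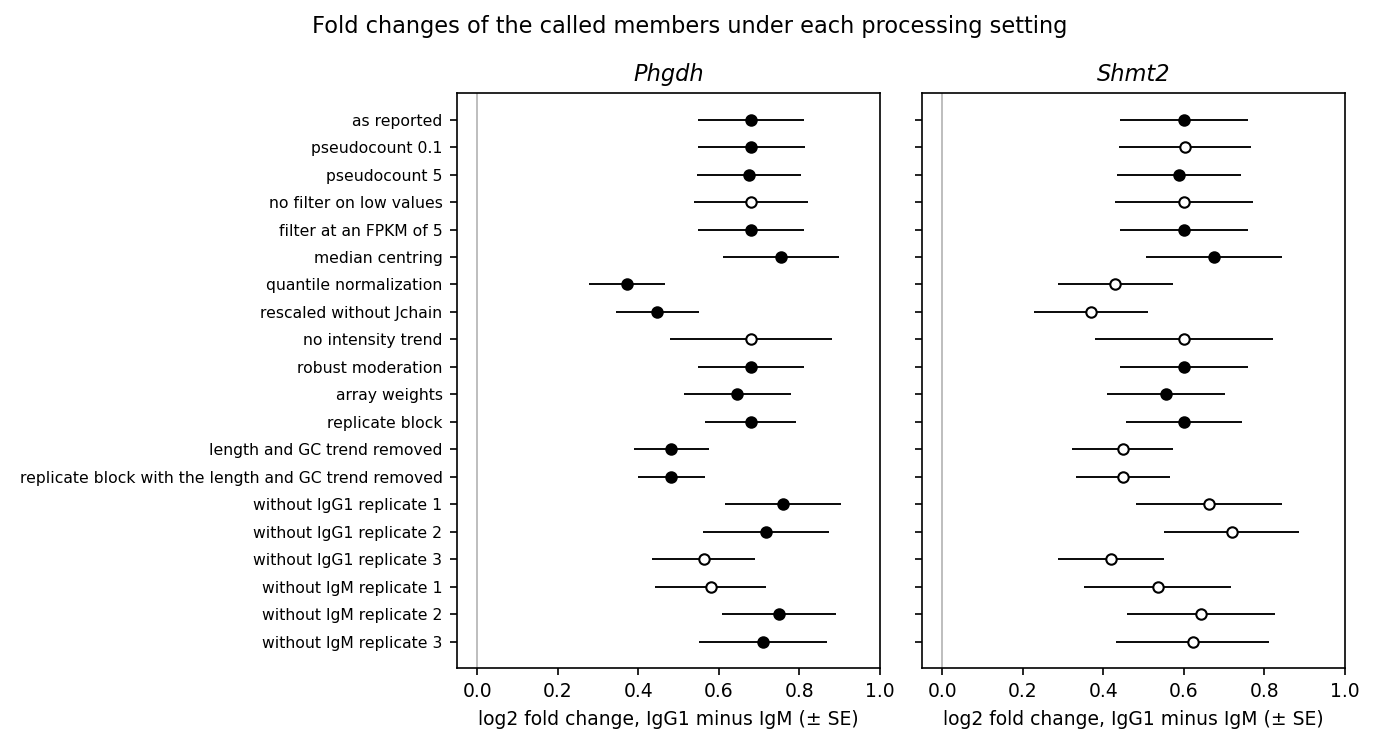
Log2 fold change with its SE (horizontal axes, IgG1 minus IgM) of Phgdh and Shmt2 as reported and under each alternative setting (rows); filled points have an adjusted p under 0.05. All values are positive, Phgdh runs from 0.37 under quantile normalization to 0.76 without IgG1 library 1, and Shmt2 is open in every fit that leaves out a library.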

How the data were processed

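The deposited values were FPKM per gene symbol and library, per the file headers. The submitters' processing notes name Cufflinks 2.2.1, Cuffdiff, TopHat2 2.1.1 and Bowtie2 2.3.5.1 and the build mm10. Per the labels' protocols, full-length cDNA came from a SMART-Seq HT kit and the libraries from Nextera XT. Which annotation was used, whether strand was used and how libraries were scaled is not given in the sources used here. FPKM were used as deposited. Genes reaching 1 FPKM in 3 or more libraries were tested on log2(FPKM + 1), a scale that understates the change of low genes, with limma 3.58.1 in R 4.3.3 (eBayes with an intensity trend, Benjamini-Hochberg adjustment over 9087 genes), after the procedure was tested on simulated data. Of these, 387 were called higher and 160 lower in IgG1 cells, which is 70.7% higher, against 48.5% under quantile normalization and 31.0% when libraries were brought to an equal sum without Jchain. Length and GC content were medians over GENCODE vM21 basic transcripts, found for 95.7% of symbols, and their trends were removed per library with natural splines of 4 degrees of freedom. Promoter windows come from RefSeq.

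Counts were not used here. From the lowest pile-up of FPKM multiplied by length, taken as 1 fragment, depth was estimated at 15500000 fragments in each IgG1 library and at 16200000, 17000000 and 17800000 in IgM libraries 1 to 3, so that Mthfd1l rests on roughly 230 to 420 fragments a library and Phgdh on 13000 to 27000. These estimates are approximate and would be alike by construction if the libraries had been scaled together. The libraries of a group correlated at 0.930 to 0.949 (IgG1) and 0.966 to 0.972 (IgM).

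The members and lists were chosen with earlier results of these data known. The genes named are every member; up to 4 genes per direction past the threshold in each list around the pathway, or its 2 most abundant tested genes where none passed; and the 2 nearest in pattern to each member. Sfxn1, Mthfd2l, Gldc, Amt, Atf4, Asns, the overlapping genes and the cell type markers fall outside that rule and were chosen after values were seen. Alternatives were other pseudocounts, filters, scalings and moderation, array weights, a replicate block, the length and GC correction, and leaving out each library.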

Additional observations from a re-analysis of the deposited data

How the results depend on the processing

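The number of members called was 2 as reported. It was 0 without the filter on low values and 0 without the intensity trend, and 1 with a pseudocount of 0.1, under quantile normalization, after rescaling without Jchain, and with the length and GC trend removed, with or without the replicate block. Without 1 library it was 0 to 1. Over all genes 547 were called, against 6 without the filter, 8 without the intensity trend, 218 with the length and GC trend removed and 326 when the replicate block was added to that. Unadjusted p under 0.05 was reached by 2189 genes without the filter and 1725 without the trend. Leaving out 1 library gave 112 to 660 calls, with 172 and 217 without IgG1 libraries 2 and 3 and 112 and 253 without IgM libraries 1 and 3. The fold change of Mthfd1l, -0.10 as reported, turned to 0.027 under quantile normalization, to 0.00056 with the length and GC trend removed (also 0.00056 with the replicate block), and ran from -0.282 without IgM library 1 to 0.0465 without IgG1 library 1. The causes were not tested. The other 7 genes stayed positive in every setting run. Same-numbered libraries correlated in their deviations from the group means at 0.101, -0.031 and -0.001 for numbers 1 to 3, so the numbers were not taken to pair the samples; with the replicate block 586 genes and 2 members were called. With 3 libraries a group, members near 5 FPKM had intervals too wide to tell a moderate difference from none.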
